A study of Mus musculus with 6 samples.

Results

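The 8 genes described here encode enzymes and partners that place, copy or remove 5-methylcytosine in DNA: Dnmt1, Uhrf1, Dnmt3a, Dnmt3b, Dnmt3l, Tet2, Tet3 and Tdg. They were taken by name from the GENCODE M21 annotation of the mouse genome (GRCm38), and all 8 were found among its 21938 protein-coding genes on the assembled chromosomes. For each gene, the positions of the promoter mark H3K4me3 and of the HA-tagged protein Tex10 were read at every annotated transcription start site (TSS, or start) and across the gene body plus 10 kb on each side.

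DNA methylation at CpG dinucleotides is kept through cell division by DNMT1, which copies the pattern to the new strand and is brought to hemimethylated sites by UHRF1. New methylation is placed by DNMT3A and DNMT3B, and DNMT3L, which has no catalytic activity, stimulates both. TET enzymes oxidise 5-methylcytosine, and TDG, a DNA glycosylase, excises the later oxidation products so that base excision repair can restore cytosine. Primordial germ cells are known for losing most of their DNA methylation, and for turning down Uhrf1, Dnmt3a and Dnmt3b while they do so. H3K4me3 marks the starts of active and poised genes, so its presence is not a measure of expression.

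H3K4me3 and Tex10 were mapped by ChIP-seq in primordial germ cell-like cells (PGCLCs), an in vitro counterpart of the founder cells of the germ line, here of strain 129Sv/J and collected at day 2. Tex10 is a nuclear protein known for a role in pluripotent stem cells. An HA tag sat at its C-terminus, and the antibody was directed against that tag. There were 2 HA-Tex10 samples, 2 H3K4me3 samples and 2 of input DNA (not analysed here), all untreated. The files used here give 1 list of intervals per antibody, 29072 for H3K4me3 and 4331 for HA-Tex10, with no score and no separate replicates. The values below therefore carry no replicate error, no test between samples was possible. Where a gene had no interval, its binding or mark was below detection at a depth that is unknown. In a bulk culture, an interval also does not show what share of the cells carried it. Among genes read for the cell type, 7 of 8 germ cell specification genes (Prdm1, Tfap2c, Prdm14, Nanos3, Dnd1, Kit and Itgb3) had H3K4me3 within 1 kb of a start. Since 61.6% of all protein-coding genes had it, this count alone says little about the identity of the cells. The exception was Dppa3, whose nearest interval lay 1029 bp from a start, just outside the window. Of 7 somatic tissue genes, Myod1 alone had the mark, in an interval of 108 bp.

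H3K4me3 came within 1 kb of a start in all 8 genes, as it did in 61.6% of protein-coding genes (13514 of 21938, Wilson 95% interval 60.96 to 62.24%). HA-Tex10 came within 1 kb of a start in Dnmt1 and in none of the other 7. The share of all protein-coding genes with one was 8.98% (Wilson 95% interval 8.60 to 9.36%), and among genes with H3K4me3 at a start it was 14.3%. A count of 1 in 8 is near these shares. Measured from the 5′-most start alone, Dnmt1 had neither H3K4me3 nor HA-Tex10, because its first promoter lies apart from both intervals. Within the gene bodies plus 10 kb there were 35 H3K4me3 intervals and 3 HA-Tex10 intervals, the latter in the loci of Dnmt1, Dnmt3a and Tdg. An HA-Tex10 interval lay in such a window for 17.0% of protein-coding genes, and an H3K4me3 interval for 70.7%. The 8 genes are longer than most, with a median length of 45481 bp against 17425 bp, so their windows had more room for an interval.

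**Figure D1:**
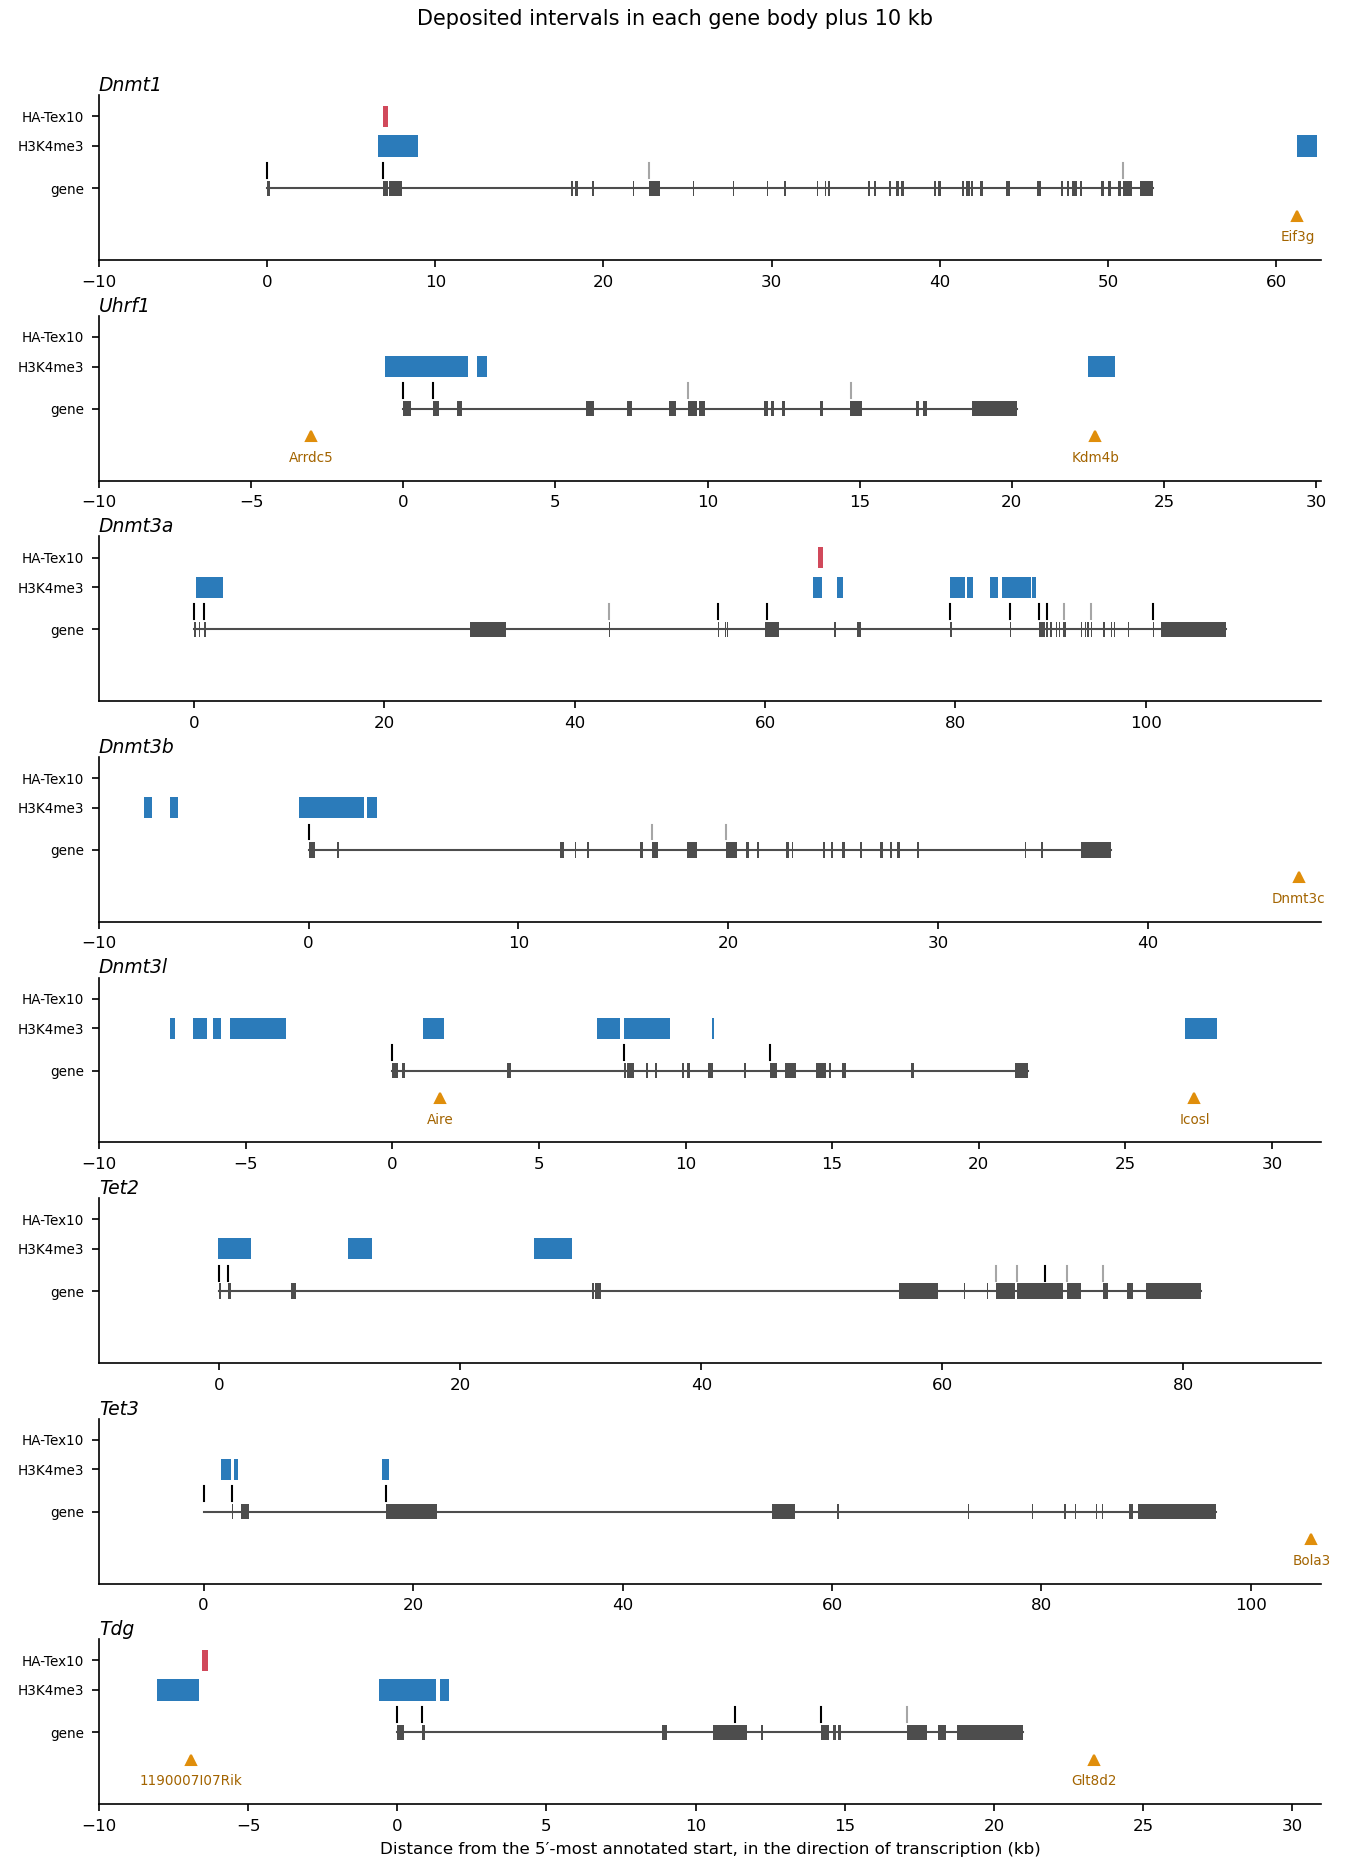
Deposited intervals along each gene, plotted by distance in kb from the 5′-most annotated start in the direction of transcription. Blue blocks are H3K4me3 and red blocks HA-Tex10 (the narrowest blocks are drawn at a minimum width). Grey boxes are exons, ticks are promoters (black with a protein-coding transcript, grey without) and orange triangles are starts of other protein-coding genes. Each gene has H3K4me3 within 1 kb of a start, though not of the 5′-most start in Dnmt1, Dnmt3l and Tet3. The 3 red blocks are in the Dnmt1, Dnmt3a and Tdg loci.

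H3K4me3 at the starts was broad for most of these genes. The widest interval within 1 kb of a start was 3072 bp at Dnmt3b, 3056 bp at Dnmt3a, 2796 bp at Tet2, 2728 bp at Uhrf1, 2384 bp at Dnmt1, 1910 bp at Tdg, 1548 bp at Dnmt3l and 938 bp at Tet3. The median over the 8 genes was 2556 bp, against 1343 bp (interquartile range 861 to 1966 bp) over all 13514 genes with the mark at a start. The widest was taken over every annotated start of a gene, so genes with more starts had more room for a wide one. With starts within 500 bp joined, the 8 genes had 41 promoters, and all 21938 protein-coding genes had 52546. Dnmt3b and Dnmt3a were wider than 94.2% and 94.1% of these genes, Tet2 wider than 91.6%, Uhrf1 wider than 90.8% and Dnmt1 wider than 85.5%. Tet3 was the only one below the median, wider than 29.0%. The mark at Tet3 was divided among 3 intervals of 938, 270 and 666 bp. With intervals closer than 1 kb merged, its widest block was 1557 bp, against a median of 1497 bp over all genes.

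**Figure D2:**
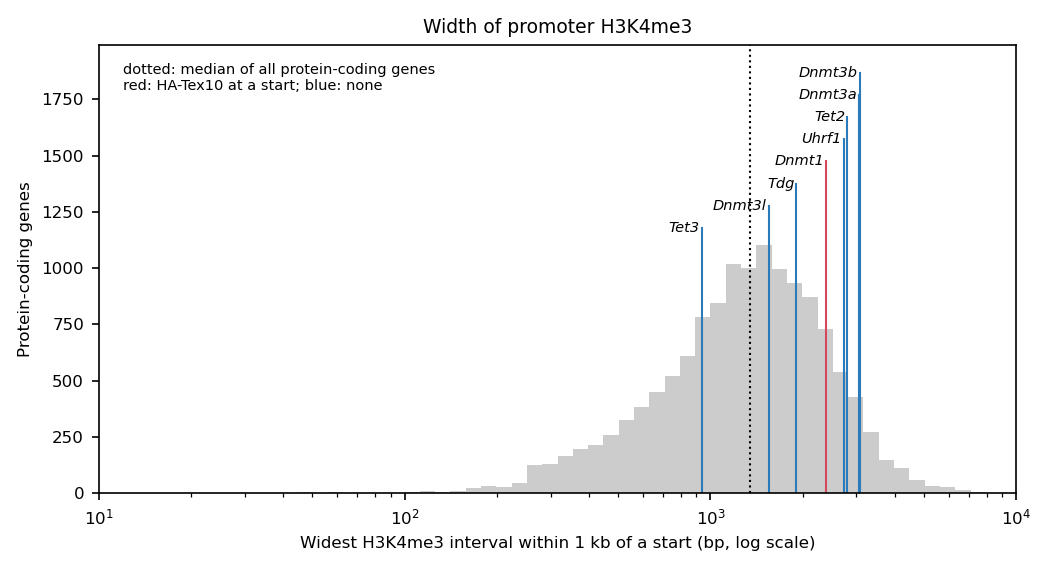
Distribution of the widest H3K4me3 interval within 1 kb of a start over protein-coding genes that have one (grey bars, number of genes; log scale in bp), with each of the 8 genes as a line and the median of all genes (1343 bp) dotted. Tet3, at 938 bp, is the one gene left of the median, and Dnmt1, with HA-Tex10, is red.

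The 8 genes have many annotated starts. Starts within 500 bp of each other were joined into one promoter, which gave 41 promoters, numbered here from the 5′ end of each gene. H3K4me3 came within 1 kb of a start in 17 of the 41, and an interval lay over a start in 13. Over all protein-coding genes these shares were 34.6% and 27.3% of 52546 promoters. HA-Tex10 came within 1 kb of 1 of the 41 promoters, against 4.31% of all. All 17 belonged to the 27 promoters with at least 1 protein-coding transcript, and over all protein-coding genes 46.7% of 34170 such promoters had the mark within 1 kb. None of the 14 promoters with only other transcripts (retained introns and the like) had it, against 12.1% of 18376 over all genes. Some starts, in either class, may be ends of incomplete transcripts. These were not separated from true starts here, and their part in the counts was not tested. Of the 16 promoters with a transcript of GENCODE's best support level, 12 had H3K4me3 within 1 kb, against 55.5% of 24208 over all genes.

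The maintenance pair comes first. Dnmt1 (ENSMUSG00000004099.16, minus strand, chromosome 9, 20907209 to 20959888) had 4 promoters, and 1 of them was marked. Its promoter 2 starts 3 coding transcripts, among them the one with the longest coding sequence (4860 bases), and lay under an H3K4me3 interval at chr9:20950934-20953317. Promoter 1 lies 6909 bp farther upstream, starts 1 transcript with a coding sequence of 4503 bases, a length that a transcript of promoter 2 also has, and was 6571 bp from the nearest H3K4me3. An oocyte form of DNMT1 that lacks the N-terminal end is known to arise from a separate upstream promoter. The 250 bases before each of these starts are shown because only the second lies in H3K4me3. They are from the C57BL/6J reference (RefSeq, GRCm38.p6), 5′ to 3′ on the minus strand, with each CpG in capitals.
Dnmt1 promoter 2, chr9:20952980-20953229: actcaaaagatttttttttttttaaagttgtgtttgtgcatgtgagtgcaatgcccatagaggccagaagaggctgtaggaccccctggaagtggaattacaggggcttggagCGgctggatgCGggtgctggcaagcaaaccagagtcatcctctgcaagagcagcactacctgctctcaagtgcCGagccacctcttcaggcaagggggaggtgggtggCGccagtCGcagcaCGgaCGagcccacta
Dnmt1 promoter 1, chr9:20959889-20960138: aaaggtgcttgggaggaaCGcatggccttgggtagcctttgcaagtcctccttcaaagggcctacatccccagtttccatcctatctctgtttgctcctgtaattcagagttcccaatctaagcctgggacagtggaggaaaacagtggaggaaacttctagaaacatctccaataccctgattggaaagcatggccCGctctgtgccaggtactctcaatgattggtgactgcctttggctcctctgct
These stretches hold 7 and 2 CpG. The contrast is larger over 1 kb centred on the start, which takes in the first exon: 53 CpG at promoter 2 and 4 at promoter 1.

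The Dnmt1 HA-Tex10 interval lay at chr9:20952699-20953022 and was 324 bp wide, wider than 73.2% of the 1846 HA-Tex10 intervals within 1 kb of a start of a protein-coding gene (median 233 bp). It contained the start of the transcript with 4860 coding bases and that of a processed transcript. From the coding start it reached 43 bp upstream and 280 bp downstream. Of its 324 bp, 272 were annotated exon and 80 of these were coding. Its centre was 119 bp downstream of the coding start and 15 bp upstream of the other. Over all HA-Tex10 intervals at a start, the centre lay at a median of 14 bp upstream of the nearest start (interquartile range 154 bp upstream to 92 bp downstream). Where an interval held several starts, the one nearest its centre was taken, which by itself makes these distances short. By that rule the Dnmt1 value is the 15 bp to the processed transcript. The whole interval fell inside the H3K4me3 interval, 295 bp from its upstream edge and 1765 bp from its downstream edge, and took up 13.6% of its width. It had a GC content of 66.4% and 29 CpG. All of its words of 32 bases occurred once in the assembled chromosomes, so its position does not rest on repeated sequence.

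Of 8 short motifs searched on both strands, 3 were in the Dnmt1 HA-Tex10 interval. The NRF1 motif was at position 20952941, read on both strands from the same 10 bases. The NFY motif (CCAAT) had 2 matches, at 20952852 and 20952855, on opposite strands and overlapping, and the SP motif (GGGCGG) 1 match, at 20952864. Windows of 324 bp centred on the HA-Tex10 intervals held these motifs in 6.28%, 32.5% and 43.4% of cases. The E-box (CACGTG), ETS (CCGGAAG), OCT (ATGCAAAT), YY1 and CREB (TGACGTCA) motifs had no match there. In the RefSeq promoters from 250 bases before to 50 after a start, 15 of which belong to these 8 genes, the NRF1 motif was in 2, both of Dnmt1, and in 6.60% of 20150 promoters of protein-coding genes. The SP motif was in 11 of the 15, in every gene but Tdg, and in 47.8% of all. NFY was in 6 (37.8% of all), the E-box in 3 (8.03%), those of Dnmt3a, Dnmt3l and Tdg, and CREB in 1 (2.31%). These windows were taken at RefSeq starts, not at the GENCODE starts used elsewhere here. The 250 bases before the GENCODE start of Tet3 promoter 2, printed below, hold the E-box letters, though no RefSeq promoter of Tet3 did. ETS, OCT and YY1 were in none of the 15. Promoters of the same gene are counted separately here. A match describes letters in a window and does not show binding.

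Uhrf1 (ENSMUSG00000001228.14, plus strand, chromosome 17, 56303321 to 56323486) had 2 protein-coding promoters 992 bp apart. Both were inside one H3K4me3 interval at chr17:56302727-56305454. A second interval of 333 bp followed in an intron after a gap of 273 bp. The third, of 897 bp, lay downstream of the gene at the start of Kdm4b, a histone demethylase gene. No HA-Tex10 interval lay in the Uhrf1 window, and the nearest to any of its starts was 154263 bp away. Dnmt1 and Uhrf1 therefore shared broad promoter H3K4me3 but not HA-Tex10.

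**Figure D3:**
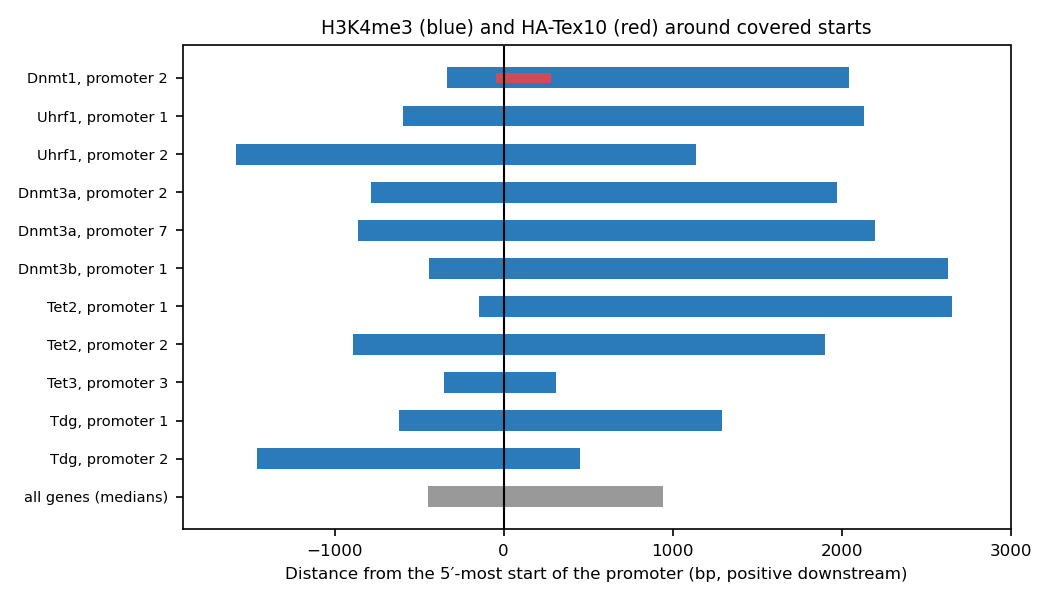
Extent of H3K4me3 (blue) around each promoter of the 8 genes whose 5′-most start lay inside an interval, in bp from that start (positive downstream), with the HA-Tex10 interval of Dnmt1 in red and the medians over 12894 such starts of protein-coding genes in grey. The mark reaches farther downstream than upstream at 8 of the 11 starts, the exceptions being Uhrf1 promoter 2, Tet3 promoter 3 and Tdg promoter 2.

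The mark reached farther into the genes than ahead of them. From the 11 promoter starts inside an interval it extended a median of 619 bp upstream and 1970 bp downstream, and the downstream part was the longer at 8. Promoters 1 and 2 of Uhrf1, of Tet2 and of Tdg share an interval within each gene, so the 11 starts are not separate intervals. Over 12894 such starts of all protein-coding genes the medians were 447 and 943 bp, with the downstream part longer at 72.8%, a share that the 8 of 11 (72.7%) matched. At Dnmt3b it reached 440 bp upstream and 2631 bp downstream. At Tet3 promoter 3, with 353 and 312 bp, it was almost even.

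Among the genes for new methylation, Dnmt3a (ENSMUSG00000020661.15, plus strand, chromosome 12, 3806007 to 3914443) held 8 H3K4me3 intervals covering 10952 bp, and 98.8% of protein-coding genes had fewer in the same kind of window. That share is not adjusted for length: Dnmt3a spans 108437 bp, against a median of 17425 bp. It also includes genes with no interval, since 70.7% of protein-coding genes had any. Intervals with short gaps between them were counted separately. Dnmt3a has a shorter form, DNMT3A2, known to be made from an internal promoter in pluripotent and germ cells. The transcripts with 2724 coding bases (Dnmt3a-201 and Dnmt3a-218) start at promoter 2, and those with 2067 coding bases (Dnmt3a-205 and Dnmt3a-203) start at promoter 7, 85721 bp downstream of the first start of the gene. Both promoters lay inside an interval, of 2758 bp (chr12:3806243-3809000) and 3056 bp (chr12:3890869-3893924). The wider of the pair was the internal one. The 250 bases before each start, shown because both are marked while they differ in CpG content, read 5′ to 3′ on the plus strand with CpG in capitals.
Dnmt3a promoter 2, chr12:3806780-3807029: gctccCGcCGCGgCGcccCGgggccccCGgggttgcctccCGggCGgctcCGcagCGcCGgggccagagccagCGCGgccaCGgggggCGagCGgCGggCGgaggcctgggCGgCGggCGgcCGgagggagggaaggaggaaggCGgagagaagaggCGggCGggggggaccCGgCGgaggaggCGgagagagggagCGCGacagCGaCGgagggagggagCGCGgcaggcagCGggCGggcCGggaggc
Dnmt3a promoter 7, chr12:3891478-3891727: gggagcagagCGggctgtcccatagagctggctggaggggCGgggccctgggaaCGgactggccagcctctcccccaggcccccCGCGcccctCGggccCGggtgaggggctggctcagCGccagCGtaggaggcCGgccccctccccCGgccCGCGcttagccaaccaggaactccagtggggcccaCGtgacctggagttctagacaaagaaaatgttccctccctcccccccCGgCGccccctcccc
They hold 37 and 16 CpG. In 1 kb around the start the ratio of observed to expected CpG (the number of CpG times the length, divided by the product of the C and G numbers) was 0.98 at promoter 2 and 0.52 at promoter 7.

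The internal Dnmt3a promoter was one of a chain of intervals. From 3885467 to 3894491 there were 5, of 1582, 660, 868, 3056 and 413 bp, with gaps of 187, 1758, 347 and 154 bp. Joined where the gap was under 1 kb, they formed blocks of 2429 and 4838 bp. A further pair, of 996 and 619 bp, lay in an intron 4802 and 7382 bp from the nearest start of the gene. The Dnmt3a HA-Tex10 interval was inside the first of this pair and not at a promoter. It was 229 bp wide, 5529 bp from the nearest Dnmt3a start and 40 bp from the downstream edge of its H3K4me3 interval, and it shared no base with an annotated exon of Dnmt3a. It held no exact match to any of the 8 motifs. The YY1 motif was searched as a single long string, which 0.496% of 229 bp windows centred on HA-Tex10 intervals held. A shorter or inexact YY1-like site would therefore be missed. It is printed whole, on the plus strand, because it is the one HA-Tex10 interval inside the body of a methylation gene that is away from every annotated start.
HA-Tex10 interval in Dnmt3a, chr12:3871720-3871948: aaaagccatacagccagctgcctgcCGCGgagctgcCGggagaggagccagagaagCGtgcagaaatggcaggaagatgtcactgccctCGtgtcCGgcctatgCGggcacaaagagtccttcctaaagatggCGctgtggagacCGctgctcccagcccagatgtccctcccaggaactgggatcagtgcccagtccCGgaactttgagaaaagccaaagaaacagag
Its GC content was 59.0% with 10 CpG, and none of its 32-base words was repeated.

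Dnmt3b (ENSMUSG00000027478.15, plus strand, chromosome 2, 153649450 to 153687730) had a single protein-coding promoter shared by 10 transcripts. The H3K4me3 interval over it, at chr2:153649010-153652081, was the widest at a start among the 8 genes. It was followed by 455 bp after a gap of 155 bp. Upstream of the gene lay 2 short intervals of 359 and 396 bp, 7490 and 6241 bp from the start and at no annotated start. The antisense transcript Dnmt3bos also starts inside the promoter interval, and the intervals carry no strand. The adjacent gene Dnmt3c, a copy of Dnmt3b known for silencing young transposons in male germ cells, had no H3K4me3 within 1 kb, the nearest interval being 43961 bp from a start. No word of 32 bases in the Dnmt3b intervals was found elsewhere in the assembled chromosomes. The nearest HA-Tex10 interval was 578215 bp from a Dnmt3b start.

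Dnmt3l (ENSMUSG00000000730.13, plus strand, chromosome 10, 78041947 to 78063622) had 9 H3K4me3 intervals, more than any other of the 8 genes, in a window that it shares with Aire and Icosl. The interval of 1548 bp at chr10:78049857-78051404 covered the start of Dnmt3l-208 and began 15 bp after that of Dnmt3l-201, both with the full coding sequence of 1263 bases (promoter 2). An interval of 790 bp ended 139 bp before this promoter. Promoter 1, 7895 bp upstream, counted as marked because an interval of 718 bp came within 717 bp of it, and an Aire start lay inside that interval. Promoter 3, which starts 3 transcripts of 378 coding bases, lay 1943 bp from the nearest interval, which was 14 bp wide. Of the rest, 4 intervals lay upstream of Dnmt3l within Aire, the autoimmune regulator gene on the other strand, of 149, 478, 282 and 1927 bp, and 1 of 1087 bp at the start of Icosl. The upstream sequences of promoters 2 and 3 are shown because the marked and the unmarked one are both poor in CpG. That of promoter 3 ends at the start of its coding transcripts.
Dnmt3l promoter 2, chr10:78049592-78049841: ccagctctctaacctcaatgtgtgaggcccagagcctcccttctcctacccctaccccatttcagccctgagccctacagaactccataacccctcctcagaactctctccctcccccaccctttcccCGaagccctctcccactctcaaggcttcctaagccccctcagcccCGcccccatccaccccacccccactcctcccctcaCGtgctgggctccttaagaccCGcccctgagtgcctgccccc
Dnmt3l promoter 3, chr10:78055085-78055334: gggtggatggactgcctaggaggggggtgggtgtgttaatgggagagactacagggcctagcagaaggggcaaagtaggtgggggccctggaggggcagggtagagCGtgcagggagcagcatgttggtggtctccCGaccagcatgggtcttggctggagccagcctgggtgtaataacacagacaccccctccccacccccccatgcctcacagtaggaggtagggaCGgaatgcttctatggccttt
They hold 4 and 3 CpG. In 1 kb around the 5′-most start the CpG ratio was 0.29 at promoter 2 and 0.23 at promoter 3. No HA-Tex10 interval lay within 357419 bp of a Dnmt3l start.

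The demethylation genes differed in how their H3K4me3 was laid out. Tet2 (ENSMUSG00000040943.12, minus strand, chromosome 3, 133463679 to 133545139) had 3 intervals. The promoter interval of 2796 bp, at chr3:133542487-133545282, covered both 5′ promoters, including the start of the transcript with 5760 coding bases. The others, of 1977 and 3166 bp, lay in introns 9826 and 25227 bp from the nearest start. The second of these, at chr3:133515894-133519059, was the widest H3K4me3 interval in any of the 8 windows, and 99.7% of the 11748 H3K4me3 intervals with no annotated start within 1 kb were narrower. The gene Gm42567 has a start within 1 kb of the promoter interval. Tet2 had no HA-Tex10 interval in its window.

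Tet3 (ENSMUSG00000034832.15, minus strand, chromosome 6, 83362373 to 83459084) had 3 intervals, all within 1 kb of a start. Forms of TET3 with and without a DNA-binding CXXC domain are known to come from different starts. The transcript with the longer coding sequence (5409 bases, promoter 2) started in a gap of 349 bp between intervals of 938 and 270 bp, 82 bp from the nearer. The one with 5004 coding bases (promoter 3) started inside the interval of 666 bp, at chr6:83441366-83442031. The non-coding gene B230319C09Rik, on the other strand, has a start within 1 kb of that interval. The upstream sequences read 5′ to 3′ on the minus strand and show the CpG density at both.
Tet3 promoter 2, chr6:83456393-83456642: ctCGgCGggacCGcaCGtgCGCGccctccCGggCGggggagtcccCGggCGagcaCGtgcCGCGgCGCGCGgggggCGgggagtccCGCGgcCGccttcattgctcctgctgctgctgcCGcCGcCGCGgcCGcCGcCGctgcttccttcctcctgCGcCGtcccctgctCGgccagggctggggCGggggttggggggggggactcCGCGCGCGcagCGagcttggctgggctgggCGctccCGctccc
Tet3 promoter 3, chr6:83441679-83441928: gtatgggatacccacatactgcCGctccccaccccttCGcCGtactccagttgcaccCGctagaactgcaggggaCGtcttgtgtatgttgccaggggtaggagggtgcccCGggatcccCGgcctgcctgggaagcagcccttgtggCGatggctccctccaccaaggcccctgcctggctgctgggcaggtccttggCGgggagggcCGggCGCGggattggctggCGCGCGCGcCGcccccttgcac
They hold 38 and 17 CpG, so the start in the gap is the denser one. The nearest HA-Tex10 interval to any Tet3 start was 1305361 bp away, the longest such distance among the 8 genes.

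Tdg (ENSMUSG00000034674.18, plus strand, chromosome 10, 82629828 to 82650799) had H3K4me3 of 1910 bp over promoters 1 and 2, at chr10:82629209-82631118, and 295 bp more after a gap of 140 bp. The third interval in its window, of 1399 bp, belonged to the start of the upstream gene 1190007I07Rik. The HA-Tex10 interval counted for Tdg lay there too. It was 220 bp wide, 6333 bp from the nearest Tdg start and 48 bp upstream of a 1190007I07Rik start, and it stopped 111 bp short of that gene's H3K4me3 interval. It thus counted for the Tdg window by distance and not for a Tdg promoter. It is printed on the plus strand because it is the HA-Tex10 interval here that met no H3K4me3.
HA-Tex10 interval upstream of Tdg, chr10:82623276-82623495: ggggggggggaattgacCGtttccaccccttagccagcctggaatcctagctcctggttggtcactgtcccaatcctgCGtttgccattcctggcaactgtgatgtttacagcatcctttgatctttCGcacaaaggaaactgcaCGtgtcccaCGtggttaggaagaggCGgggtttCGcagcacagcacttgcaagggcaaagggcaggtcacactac
It held 7 CpG, 2 E-box matches at 82623419 and 82623428 and 1 NFY match at 82623345. Windows of 220 bp centred on the HA-Tex10 intervals held the E-box in 5.26% and the NFY motif in 24.8% of cases. Of its 32-base words 3.17% were repeated, against 40.7% in the neighbouring H3K4me3 interval, the highest share of any interval in the 8 windows. None of the 38 intervals was mostly repeated (over 50% of its words).

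Over the 3 HA-Tex10 intervals, 2 met H3K4me3, those of Dnmt1 and Dnmt3a. In the whole HA-Tex10 list on the assembled chromosomes 69.3% of 4238 did.

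Away from their own starts the 8 windows held 19 of the 35 H3K4me3 intervals. Of these, 5 were within 1 kb of a start of another gene (Eif3g, Kdm4b, Aire, Icosl and 1190007I07Rik). The other 14 had no annotated start of any gene within 1 kb: 4 in the Dnmt3a window, 4 in that of Dnmt3l, 3 in that of Dnmt3b, 2 in that of Tet2 and 1 in that of Uhrf1. Over the whole list, 40.5% of 29002 H3K4me3 intervals had none. The median width was 1565 bp for the 16 intervals at the genes' own starts and 660 bp for the 19 others. Those 19 include the 5 at starts of other genes. The whole list was split differently, by a start of any gene. There the median was 1029 bp for intervals with an annotated start within 1 kb and 452 bp for those without.

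**Figure D4:**
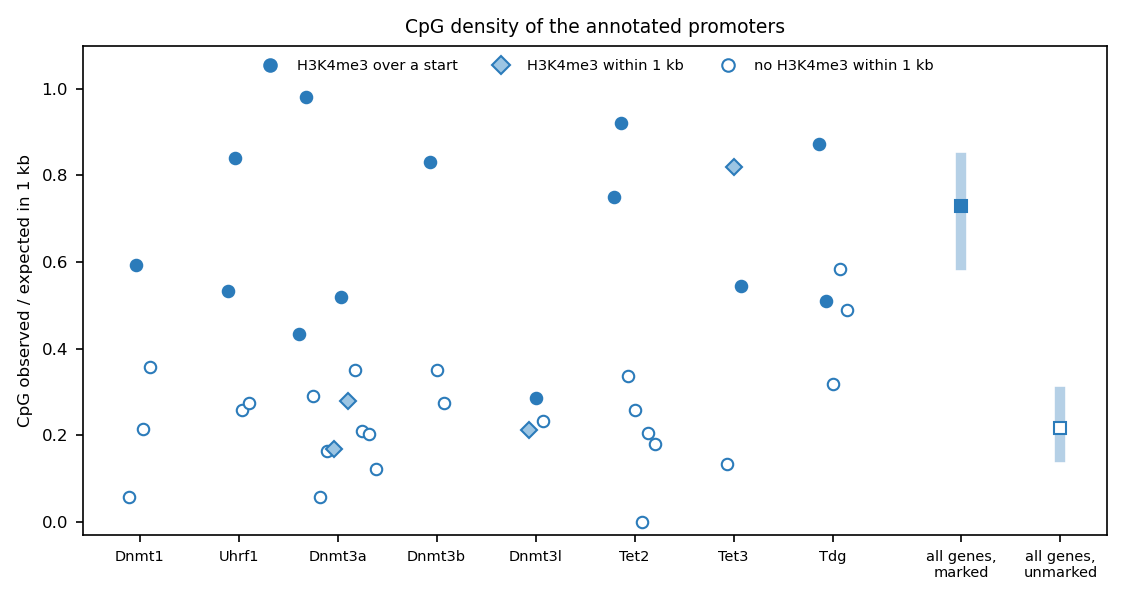
Ratio of observed to expected CpG in 1 kb centred on the 5′-most start of each of the 41 promoters of the 8 genes, in order along each gene, filled where H3K4me3 lay over a start, as diamonds where it came within 1 kb and open otherwise; squares and bars give the median and interquartile range over all protein-coding promoters with H3K4me3 over a start (0.73) and with none within 1 kb (0.22). The filled points sit between 0.29 (Dnmt3l) and 0.98 (Dnmt3a).

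CpG density, which is set by the sequence and was not used to choose the genes, differed between most marked and unmarked promoters. The 13 promoters with H3K4me3 over a start had a median CpG ratio of 0.59 (range 0.29 to 0.98). Among them, promoters 1 and 2 of Uhrf1, of Tet2 and of Tdg are less than 1 kb apart. Their windows overlap within each gene, so the 13 are not separate stretches of sequence. The 24 promoters with none within 1 kb had a median of 0.25 (range 0 to 0.58). Over all protein-coding genes the medians were 0.73 for 14325 promoters and 0.22 for 34366. Apart from Dnmt3l promoter 2 at 0.29, the promoters with the mark over a start were at 0.43 (Dnmt3a promoter 1) or above. The unmarked promoters above that value were promoters 4 and 5 of Tdg, at 0.58 and 0.49. The 4 promoters with the mark within 1 kb but not over a start ran from 0.17 (Dnmt3a promoter 6) to 0.82 (Tet3 promoter 2).

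Other genes of the pathway were read in the same way. Of 38 related genes, 34 had H3K4me3 within 1 kb of a start, against 61.6% of all protein-coding genes, and 5 had HA-Tex10, against 8.98%. Among 14 partners in maintenance and targeting, 12 had H3K4me3, and the exceptions were Dnmt3c and Dppa3, the latter encoding a protein known to protect methylation in the zygote. HA-Tex10 was at 2 of them: Setdb1, a histone H3 lysine 9 methyltransferase, with an interval of 322 bp over a start, and Usp7, a deubiquitinase that binds DNMT1 and UHRF1, with one of 76 bp lying 76 bp from a start. The widest H3K4me3 interval was 4268 bp at Trim28, a co-repressor, and 4179 bp at Hells, a chromatin remodeller needed for methylation. All 7 genes in the list of methyl-CpG readers had H3K4me3, and none had HA-Tex10 at a start. In the list for deamination and base excision repair, 15 of 17 genes had H3K4me3. HA-Tex10 was there at 3: Mbd4, a thymine glycosylase with an activity close to that of TDG (323 bp), Gadd45a, a stress-response gene (393 bp), and Xrcc1, a scaffold of base excision repair (131 bp). These intervals all lay over a start. A count of 5 among 34 marked genes is close to the background of 14.3%, and no test was run on these lists.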

How the data were processed

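Per the submitters' processing notes, the deposited intervals involve Bowtie2 2.3.4.3, SAMtools 1.9, MACS2 2.1.2 and HOMER, on mm10. Their roles, the peak threshold, the use of input DNA and the joining of the replicates are not given in the sources used here. The deposited lists, 1 per antibody, hold positions in bp and no score. On the 21 chromosomes used, 0 intervals ran beyond the chromosome lengths of GRCm38. One more deposited list held 2990 distinct intervals, all of them HA-Tex10 intervals that meet H3K4me3, and served only as an alternative.

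Starts were those of any annotated transcript in GENCODE M21, printed coordinates count from 1, and an overlap was at least 1 bp. Sequences came from RefSeq's GRCm38.p6, the C57BL/6J strain. Python 3.11.15, pandas 2.3.3 and numpy 2.4.6 were used, and the interval functions were tested on simulated data. All 8 genes were named, together with neighbouring genes whose starts share an interval and related genes with HA-Tex10 or without H3K4me3. Some genes of the related lists are counted but not reported here by name. Trim28 and Hells were named after their values were seen. The genes, the related lists and the motifs were chosen with earlier results of these data known. The Wilson intervals cover the counting of genes only. With 1 list per antibody, genes have no profile over samples and no likeness between genes was computed.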

Additional observations from a re-analysis of the deposited data

How the results depend on the processing

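No paired analysis was possible because the lists, 1 for each antibody, name no replicate, so none could be left out either. The 8 genes with H3K4me3 and Dnmt1 with HA-Tex10 were found with a narrower and with a wider window around the start, with protein-coding transcripts only, with intervals wider than the list's median and with merged intervals. With the 5′-most start of each gene only, 5 genes had H3K4me3 (without Dnmt1, Dnmt3l and Tet3) and 0 had HA-Tex10. The upstream starts of Dnmt1, Dnmt3l and Tet3 lie apart from their intervals. Of all 21938 protein-coding genes, 12692 had H3K4me3 and 1754 had HA-Tex10 under that setting, so 5 of 8 is near the share of all genes. Intervals wider than the median, with width standing in for a score, left 21 H3K4me3 and 1 HA-Tex10 interval in the 8 windows, and 1044 protein-coding genes with HA-Tex10 at a start in place of 1969. Merging intervals within 1 kb left 23 H3K4me3 intervals and moved the median width of the widest to 2643.5 bp, against 1497 bp over all genes. The gene bodies alone held 25 H3K4me3 and 2 HA-Tex10 intervals, and a flank of 25 kb held 45 and 3. Joining starts within 100 bp gave 23 marked promoters of 51, and within 1 kb 13 of 36. The share over all genes was computed only for joining within 500 bp, so these counts have no background. All 3 HA-Tex10 intervals lay within 1 kb of H3K4me3, though 2 met it. The other deposited list, of HA-Tex10 intervals that meet H3K4me3, held 2 of the 3. The depth of the libraries is unknown, which limits what an absent interval shows.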
